A study of Sus scrofa with 48 samples.

Results

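TRAF6 and 9 of its partners in the MYD88-IRAK pathway (MYD88, TIRAP, IRAK4, IRAK1, IRAK2, IRAK3, TAB1, TAB2 and MAP3K7) were followed in whole blood of 2 pig lines, bred over generations toward a low or a high residual feed intake (RFI). RFI is the part of feed intake that growth and maintenance do not account for, so that low RFI pigs are the more efficient ones. Members were the array spots whose gene name equalled one of the 10 symbols and which the authors retained. This gave 16 of the 37113 retained spots, 1 of them for TRAF6, 3 for MYD88, 2 each for IRAK4, IRAK2, TAB2 and MAP3K7, and 1 each for TIRAP, IRAK1, IRAK3 and TAB1. The array carried 18 spots with these names, and the other 2, a second TRAF6 spot and a second IRAK3 spot, were not retained. TRAF6 was chosen by the line difference of its retained spot, which is therefore described here without a test, and the partners were chosen by their place in the pathway.

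The blood was taken at slaughter, at 132 days of age, from 48 castrated males of the French Large White breed, 24 from each line. Within each line 12 pigs had free access to a diet rich in fat and fiber (HF) and 12 to a diet poor in both (LF). There were thus 4 groups of 12 pigs, low RFI HF, low RFI LF, high RFI HF and high RFI LF, without any treatment other than diet. The RNA of each pig was hybridized to 1 one-colour array, and values are log2 intensities relative to the median retained spot of the array, so that 0 is the level of that median spot. The arrays lay on 6 slides, each with 2 arrays of each group, and between 40771 and 46727 of the 60306 non-control spots were well above background on an array. No non-control spot was saturated. Whole blood is a mixture, in which fewer cells of a type and less RNA per cell cannot be told apart.

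Toll-like receptors and the receptors of the interleukin-1 family sense microbial products and inflammatory cytokines on white blood cells. On activation they bind the adaptor MYD88, in some cases through TIRAP, and MYD88 gathers the kinases IRAK4, IRAK1 and IRAK2. These engage TRAF6, a ubiquitin ligase whose chains recruit TAB1, TAB2 and the kinase MAP3K7 (TAK1), which in turn switches on the NF-kappaB and MAP kinase branches. IRAK3 (IRAK-M) is the inhibitory member of the IRAK family.

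The TRAF6 result turns on a single probe, so the probes for TRAF6 are shown with the pair of primers that the study used to measure TRAF6 by qPCR. All are 5′ to 3′. The capitals in the second probe mark bases 9 to 31, which are the reverse complement of the reverse primer. The retained probe, which the scanner files place from base 1484 of the mRNA, holds neither primer. The qPCR values themselves are not analysed here. The 2 probes therefore read different stretches of TRAF6, and it is the second one that overlaps the qPCR amplicon.
TRAF6 retained probe A_72_P223847: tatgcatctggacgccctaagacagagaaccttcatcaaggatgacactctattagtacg
TRAF6 probe O8523, not retained: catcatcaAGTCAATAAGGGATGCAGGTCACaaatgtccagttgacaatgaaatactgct
TRAF6 forward primer: ccccctgtggtcataggttct
TRAF6 reverse primer: gtgacctgcatcccttattgact

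At its retained spot TRAF6 was high in every low RFI pig and uneven in high RFI pigs. In low RFI HF pigs the lowest log2 level was 1.65, the median 2.16 and the highest 2.63, with a mean of 2.17 ± 0.31 (SD, n = 12). In low RFI LF pigs these were 1.54, 2.34 and 2.47, with a mean of 2.21 ± 0.30 (SD, n = 12). In high RFI HF pigs the levels ran from 0.01 through a median of 0.84 to 2.14, with a mean of 0.93 ± 0.82 (SD, n = 12). In high RFI LF pigs they ran from -0.08 through 1.55 to 2.35, with a mean of 1.33 ± 0.93 (SD, n = 12). The lines overlapped, since 9 of the 24 high RFI pigs were at or above the lowest low RFI pig. All 24 low RFI pigs lay above the high RFI median of 1.38.

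High RFI pigs fell into separate clusters of TRAF6 signal. The 10 lowest lay between -0.08 and 0.33, the next pig was at 1.35, and the other 14 reached up to 2.35. The empty stretch of 1.02 on the log2 scale corresponds to a 2.02-fold step in intensity, whereas the widest gap between neighbouring low RFI pigs was 0.28. The lower cluster held 6 HF and 4 LF pigs, and each of the 6 slides carried 1 or 2 of them among its 4 high RFI arrays. With the scanner's background-subtracted signal the split was again 10 against 14 pigs, with a gap of 1.07. The SD was 0.88 in high RFI pigs and 0.30 in low RFI pigs, a ratio of 2.96 that lay at percentile 99.5 of all retained spots. The spot was bright throughout, at 9.07 to 90.3 times its local background, and was well above background on all 48 arrays.

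**Figure D1:**
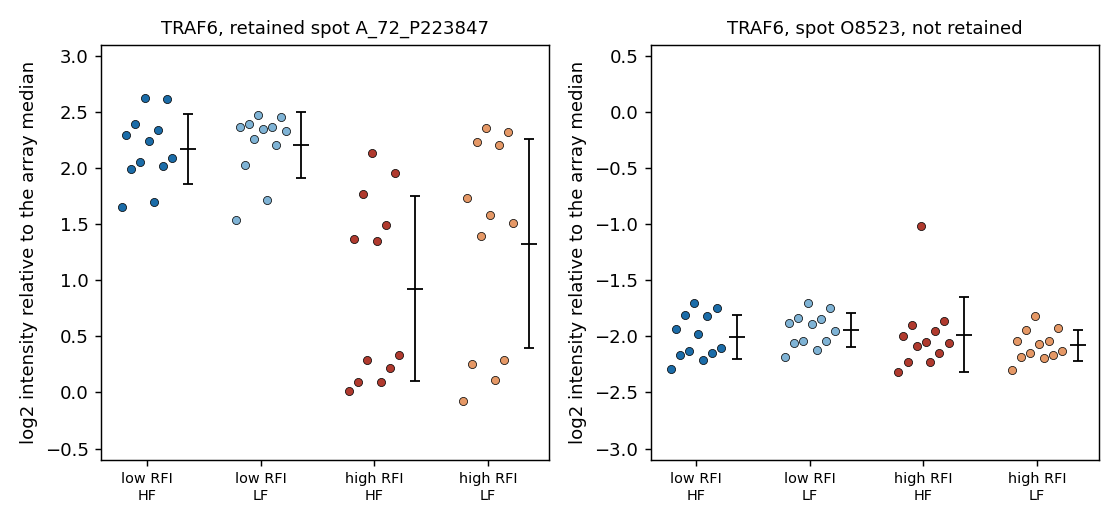
Log2 intensity relative to the array median (vertical axis) of the retained TRAF6 spot (left) and of the TRAF6 spot that was not retained (right) in each pig of the 4 groups, with the mean and SD of each group of 12 pigs beside the points. The left panel shows the 10 high RFI pigs between -0.08 and 0.33 apart from the other 14, and the right panel shows the 4 groups at a like level near -2.

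The mean line difference at the retained spot was 1.06 on the log2 scale (95% interval 0.69 to 1.43), an FC of 2.09 in favour of low RFI pigs. It was 1.24 (0.72 to 1.76) among pigs fed HF and 0.88 (0.36 to 1.40) among pigs fed LF. Low RFI pigs had the higher mean on all 6 slides, by 0.46 to 1.64. TRAF6 was chosen by this line difference, so the intervals and the slide values describe it and do not test it. The diet contrast and the interaction were not used to choose TRAF6. HF pigs differed from LF pigs by -0.22 (95% interval -0.59 to 0.15) with an unadjusted p of 0.23 and an adjusted p of 0.9999 in limma's moderated test. The line difference differed between diets by 0.36 (-0.37 to 1.099), with an unadjusted p of 0.33 and an adjusted p of 0.90 in the same test.

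**Figure D2:**
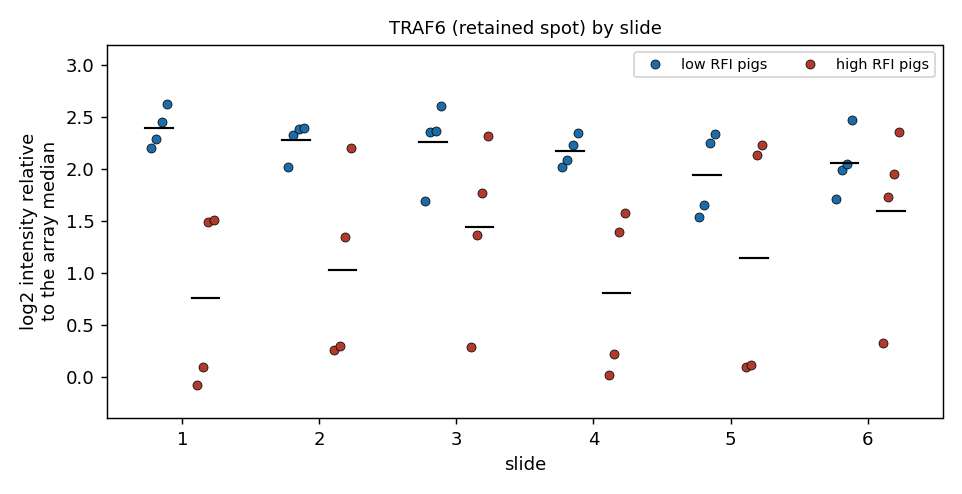
Log2 intensity relative to the array median (vertical axis) of the retained TRAF6 spot by slide (horizontal axis), with 4 low RFI and 4 high RFI pigs per slide as points and the mean of each line as a bar. The low RFI mean was the higher one on all 6 slides, and each slide carried 1 or 2 high RFI pigs of the lower cluster.

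The second TRAF6 spot was not DE between the lines. In low RFI pigs its lowest level was -2.29, its median -1.97 and its highest -1.70, with a mean of -1.97 ± 0.17 (SD, n = 24). In high RFI pigs these were -2.31, -2.07 and -1.01, with a mean of -2.03 ± 0.26 (SD, n = 24). One high RFI HF pig stood at -1.01, the next was at -1.82, and otherwise the lines overlapped over their range. The pig at -1.01 was high RFI HF replicate 1, whose deposited column of retained spots was faulty. The line difference of this spot is not given without that pig. When limma was fitted over all 60306 non-control spots, the line difference was 0.06 (95% interval -0.07 to 0.19) with an adjusted p of 0.9997, in a fit that called 1.52% of these spots for line. With the background-subtracted signal it was 0.11 (-0.08 to 0.30), with an adjusted p of 0.85 in the same test. The second spot was dim, at 1.33 to 4.63 times its local background, although the scanner software called it well above background on all 48 arrays. After removal of the group means, the correlation of the 2 spots across the 48 pigs was -0.01, which is given as a description. No other spot on the array shared 20 or more bases in a row with either TRAF6 probe.

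None of the 15 partner spots was DE between the lines. At an adjusted p under 0.05 in limma's moderated test the count was 0 of 15, against 1027 of all 37113 retained spots, that is 2.77%. At an unadjusted p under 0.05 the count was 1 of 15, against 12.0% of all spots, and the analysis of variance of each spot gave the same counts of 0 and 1. At the criterion of the study's methods, an unadjusted p under 0.01 with an FC above 1.1, the count was 0 of 15, against 5.78% of all spots. The partner differences ranged from -0.15 to 0.10 around a median of 0.03, beside a median of 0.02 over all retained spots, and 9 of them were above 0 and 6 below. The 95% intervals ran from -0.35 at the lowest to 0.32 at the highest. No interval held the TRAF6 difference of 1.06, and 14 of the 15 held 0.

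**Figure D3:**
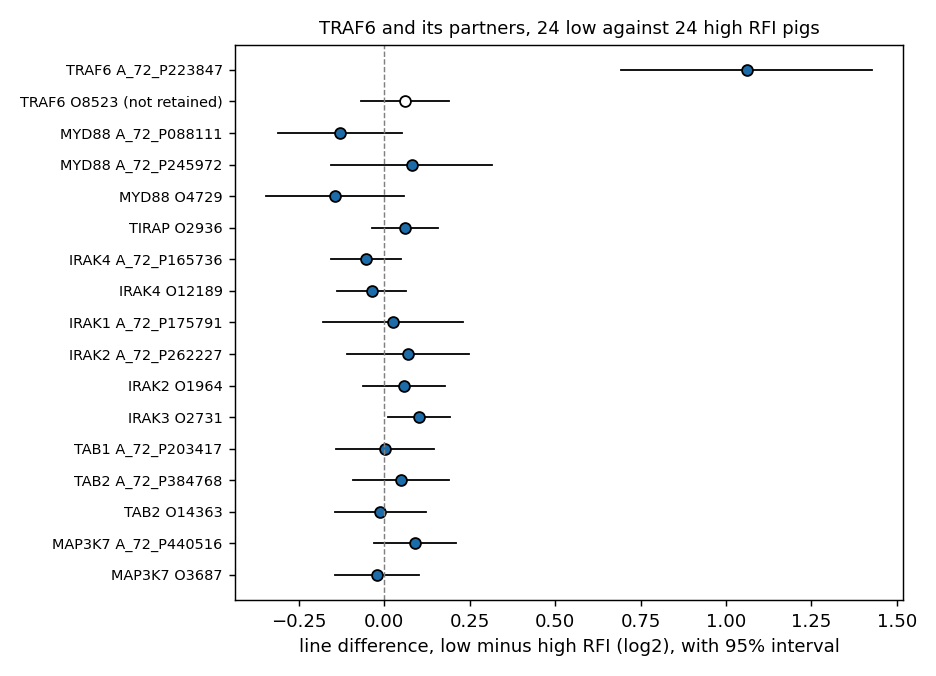
Line difference, low minus high RFI (log2, horizontal axis), with its 95% interval for the 16 retained member spots (filled) and for the TRAF6 spot that was not retained (open), each from 24 low and 24 high RFI pigs. Only the retained TRAF6 spot lies near 1, and the partner spots lie between -0.15 and 0.10.

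Among the adaptors, MYD88 is the hub of the pathway and was read by 3 spots. At spot A_72_P088111 the log2 level was -1.12 ± 0.26 in low RFI and -0.99 ± 0.37 in high RFI pigs (SD, n = 24 each), with ranges of -1.56 to -0.40 and -1.62 to -0.05. At spot O4729 it was 1.36 ± 0.33 and 1.51 ± 0.38 (SD, n = 24 each), with ranges of 0.86 to 2.18 and 1.01 to 2.51. At the bright spot A_72_P245972 it was 8.70 ± 0.44 and 8.62 ± 0.39 (SD, n = 24 each). The lines overlapped at each of these spots. The line differences were -0.13 (95% interval -0.31 to 0.05), -0.15 (-0.35 to 0.06) and 0.08 (-0.16 to 0.32), with adjusted p of 0.69, 0.69 and 0.94 in limma's moderated test. The first pair of MYD88 spots moved together across pigs, with a correlation of 0.88 after removal of the group means. The bright spot ran against them, at -0.18 and -0.41, so that the mean of the 3 spots mixes unlike readings. An unnamed spot with the same 60 bases as the bright one correlated with it at 0.98 and differed between lines by 0.05 (-0.17 to 0.28).

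MYD88 was also the member with the lowest p for the interaction. Among pigs fed HF, the difference at A_72_P088111 was -0.28 (95% interval -0.54 to -0.03), with an unadjusted p of 0.032 and an adjusted p of 0.47 in limma's moderated test. Among pigs fed LF it was 0.02 (-0.24 to 0.28). The interaction itself, -0.30 (-0.66 to 0.06), had an unadjusted p of 0.100 and an adjusted p of 0.90. Within the HF diet 1 of the 15 partner spots was at an unadjusted p under 0.05, against 8.77% of all spots, and 0 were at an adjusted p under 0.05, against 0.773%. Within the LF diet the count was 0 at an unadjusted p under 0.05, against 7.45% of all spots, and 0 at an adjusted p under 0.05, against 0.574%.

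TIRAP, the adaptor that bridges MYD88 to TLR2 and TLR4, gave a dim signal. Its log2 level was -2.38 ± 0.16 in low RFI pigs and -2.44 ± 0.15 in high RFI pigs (SD, n = 24 each), and the ranges of -2.68 to -1.95 and -2.69 to -2.12 overlapped. It was well above background on 23 of the 24 low RFI arrays and on all 24 high RFI arrays. The line difference was 0.06 (95% interval -0.04 to 0.16), with an adjusted p of 0.78 in limma's moderated test.

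**Figure D4:**
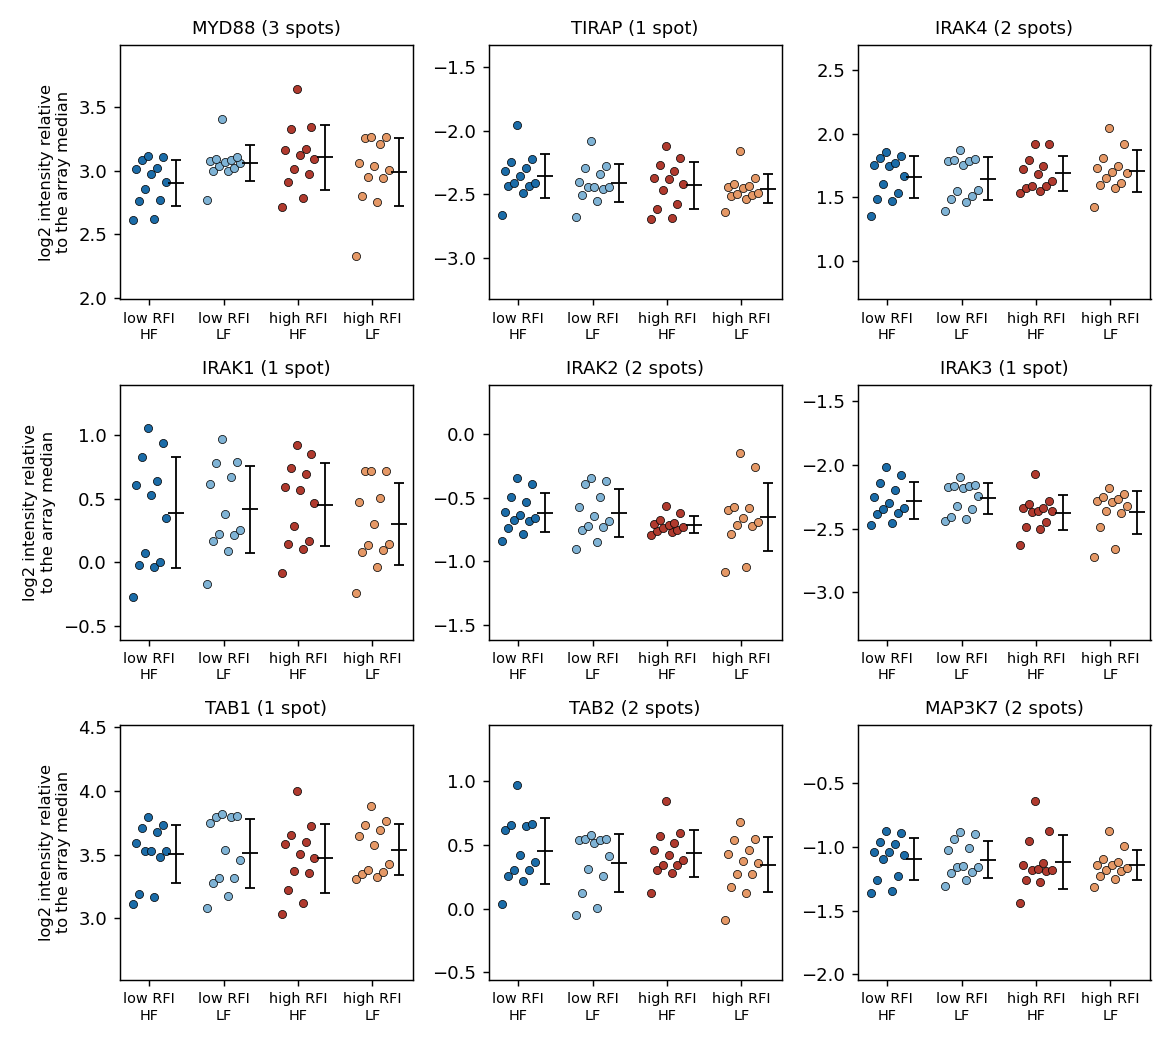
Log2 intensity relative to the array median (vertical axes, each spanning 2 log2 units) of the 9 partner genes in each pig of the 4 groups, as the mean of the retained spots of a gene, with the mean and SD of each group of 12 pigs. The 4 groups overlap for each of the 9 partners.

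IRAK4, the kinase that phosphorylates IRAK1, was read by 2 probes that lie end to end on the mRNA, and they are printed to show the stretches that they read. The capitals mark the 10 bases that the probes share, and the second probe starts at base 1323 of the mRNA according to the scanner files.
IRAK4 probe O12189: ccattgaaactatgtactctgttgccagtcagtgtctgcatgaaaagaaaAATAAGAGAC
IRAK4 probe A_72_P165736: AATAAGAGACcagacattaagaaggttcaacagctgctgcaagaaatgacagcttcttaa

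The 2 IRAK4 spots gave nearly the same levels. At A_72_P165736 the level was 1.70 ± 0.17 in low RFI and 1.75 ± 0.16 in high RFI pigs (SD, n = 24 each), ranging from 1.38 to 1.95 and from 1.46 to 2.21. At O12189 it was 1.61 ± 0.17 and 1.65 ± 0.15 (SD, n = 24 each). The spots correlated at 0.80 after removal of the group means. Their line differences of -0.05 (95% interval -0.16 to 0.05) and -0.04 (-0.14 to 0.06) had adjusted p of 0.84 and 0.93 in limma's moderated test. IRAK4 was among the tightest readings, and its intervals reach no further from 0 than 0.16 on the log2 scale.

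IRAK1, the kinase that hands the signal on to TRAF6, varied more between pigs. Its level was 0.40 ± 0.39 in low RFI and 0.38 ± 0.33 in high RFI pigs (SD, n = 24 each), ranging from -0.27 to 1.06 and from -0.24 to 0.92. The line difference was 0.03 (95% interval -0.18 to 0.23), with an adjusted p of 0.98 in limma's moderated test. An unnamed spot with the same 60 bases gave 0.02 (-0.19 to 0.22) and correlated with it at 0.82 after removal of the group means.

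IRAK2, the kinase that sustains signalling through TRAF6, was read by 2 spots that did not move together, with a correlation of -0.04. At A_72_P262227 the level was 0.45 ± 0.31 in low RFI and 0.38 ± 0.31 in high RFI pigs (SD, n = 24 each), and at O1964 it was -1.69 ± 0.16 and -1.75 ± 0.23. The line differences were 0.07 (95% interval -0.11 to 0.25) and 0.06 (-0.06 to 0.18), with adjusted p of 0.92 and 0.87 in limma's moderated test.

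IRAK3 was the partner with the lowest p for line. Its retained spot lay at -2.27 ± 0.13 in low RFI and at -2.37 ± 0.15 in high RFI pigs (SD, n = 24 each), ranging from -2.47 to -2.02 and from -2.72 to -2.07. The difference of 0.10 (95% interval 0.01 to 0.19) had an unadjusted p of 0.028 and an adjusted p of 0.31 in limma's moderated test, and 17 of the 24 low RFI pigs lay above the high RFI median. The spot was dim and was well above background on 23 of 24 arrays in each line. An unnamed spot with the same 60 bases gave a difference of 0.01 (-0.07 to 0.10) and correlated with it at 0.49 only. The second IRAK3 spot, which was not retained, was well above background on 8 of the 48 arrays and gave -0.02 (-0.17 to 0.14) when all non-control spots were fitted.

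No spot of the complex below TRAF6 was DE between the lines. TAB1, the subunit that activates MAP3K7, was at 3.51 ± 0.25 in low RFI and 3.51 ± 0.24 in high RFI pigs (SD, n = 24 each), ranging from 3.08 to 3.82 and from 3.03 to 4.003. Its difference of 0.00 (95% interval -0.14 to 0.15) had an adjusted p of 0.998 in limma's moderated test. TAB2, which binds the ubiquitin chains made by TRAF6, was at 1.04 ± 0.26 and 0.99 ± 0.23 at A_72_P384768 and at -0.22 ± 0.25 and -0.21 ± 0.19 at O14363 (SD, n = 24 each). The TAB2 differences were 0.05 (-0.09 to 0.19) and -0.01 (-0.14 to 0.12), and the 2 spots correlated at 0.83 after removal of the group means.

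MAP3K7, the kinase of the complex, was at 0.26 ± 0.21 in low RFI and 0.17 ± 0.19 in high RFI pigs at A_72_P440516 (SD, n = 24 each). At the dim spot O3687 it was at -2.45 ± 0.20 and -2.43 ± 0.22 (SD, n = 24 each). The differences were 0.09 (95% interval -0.03 to 0.21) and -0.02 (-0.15 to 0.10), with adjusted p of 0.67 and 0.97 in limma's moderated test, and the spots correlated at 0.27 after removal of the group means.

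The spots of a gene were also averaged. Of the 9 partner genes 0 were called at an adjusted p under 0.05 in limma's moderated test, against 3.34% of the 8465 genes formed in this way, and 1, IRAK3, was at an unadjusted p under 0.05 (p = 0.024, adjusted p = 0.26), against 13.0% of all genes. The other gene differences ranged from -0.07 for MYD88 to 0.06 for IRAK2 and TIRAP. Within slides, MYD88 ran from -0.38 to 0.22, IRAK1 from -0.17 to 0.32, TAB2 from -0.26 to 0.25 and IRAK3 from -0.03 to 0.21, the last one higher in low RFI pigs on 5 of the 6 slides. No partner was higher in low RFI pigs on every slide. For diet 0 of the 9 partner genes were at an unadjusted p under 0.05, against 1.94% of all genes, and for the interaction 1 was, MYD88, against 2.24%. The MYD88 interaction was -0.27 (95% interval -0.52 to -0.02), with an unadjusted p of 0.037 and an adjusted p of 0.87 in limma's moderated test. Within HF, 1 of 9 genes was at an unadjusted p under 0.05, against 10.1% of all genes, again MYD88 with -0.20 (-0.38 to -0.02, unadjusted p of 0.029, adjusted p of 0.40), and within LF 0 were, against 7.75%. These MYD88 values are means over 3 spots that did not move together.

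Neither diet nor its interaction with line was called at a member spot. Of the 16 member spots 0 were called for diet and 0 for the interaction at an adjusted p under 0.05 in limma's moderated test, against 0.0% of all retained spots for each. At an unadjusted p under 0.05 the counts of spots were also 0 and 0, against 1.64% and 2.28% of all spots, and the analysis of variance gave 0 as well. The diet differences of the partners, HF minus LF, ranged from -0.06 at a MYD88 spot to 0.12 at TAB2 spot A_72_P384768 (95% interval -0.02 to 0.26, unadjusted p of 0.098).

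Whether partners tracked TRAF6 from pig to pig was examined among the 24 low RFI pigs, because TRAF6 values of high RFI pigs fall into separate clusters, over which a correlation would mainly contrast the clusters. Over 10 relations, 9 partner genes and the second TRAF6 spot, no Pearson correlation was past an adjusted p of 0.05, while the rank correlations of IRAK1 and TAB1 were, though not once slides were taken into account. IRAK1 ran against TRAF6, with r = -0.50 (permutation p = 0.013, adjusted p = 0.13) and rho = -0.56 (permutation p = 0.0054, adjusted p = 0.034). TAB1 ran with TRAF6, with r = 0.44 (permutation p = 0.031, adjusted p = 0.16) and rho = 0.54 (permutation p = 0.0068, adjusted p = 0.034). Without the 2 pigs farthest from the TRAF6 median, r was -0.57 for IRAK1 and 0.37 for TAB1. TRAF6 and TAB1 also varied between slides, with slide means in low RFI pigs of 1.95 to 2.40 for TRAF6 and 3.24 to 3.68 for TAB1. With values centred by slide and permuted within slides, r was -0.48 and rho -0.53 for IRAK1 (permutation p = 0.022 and 0.014, adjusted p = 0.22 and 0.13), and r was 0.29 and rho 0.44 for TAB1 (permutation p = 0.14 and 0.038, adjusted p = 0.33 and 0.13). For TIRAP rho was -0.49 in that analysis (permutation p = 0.031, adjusted p = 0.13). None of the 10 relations was then past an adjusted p of 0.05. Without centring, IRAK4 was next by rank correlation, with r = 0.36 and rho = 0.45 (permutation p = 0.089 and 0.027, adjusted p = 0.22 and 0.090). By Pearson correlation the second TRAF6 spot was next, with r = 0.39 and rho = 0.31 (permutation p = 0.061 and 0.13, adjusted p = 0.20 and 0.22). For MYD88, TIRAP, IRAK2, IRAK3, TAB2 and MAP3K7, r ranged from -0.27 to 0.11 with adjusted permutation p of 0.39 or more. These gene means cover unlike spots, since r was -0.47 at IRAK2 spot O1964 and 0.29 at A_72_P262227, and -0.43, -0.06 and 0.18 at MYD88 spots A_72_P245972, A_72_P088111 and O4729, as descriptions. The tests are two-sided.

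Other genes of the pathway were listed by textbook role, 57 in all, of which 38 had retained spots, 84 in number. The list was drawn up with earlier results of these data known, so its counts are a description. The list had 1 spot called higher and 9 called lower in low RFI pigs at an adjusted p under 0.05 in limma's moderated test, against 1.32% and 1.44% of all retained spots. Its median line difference was -0.05, beside 0.02 over all spots, and 31 spots were above 0 and 53 below. Because several spots read one gene, the 9 lower spots stand for 4 genes.

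The lower genes were all receptors or co-receptors, above TRAF6 in the pathway and opposite to it in direction. CD14, the lipopolysaccharide co-receptor of monocytes, was lower in low RFI pigs at 2 of its spots, with differences of -0.50 (95% interval -0.78 to -0.23, adjusted p = 0.029) and -0.49 (-0.77 to -0.21, adjusted p = 0.042). At the first of them its level was 2.92 ± 0.52 in low RFI and 3.42 ± 0.49 in high RFI pigs (SD, n = 24 each, limma's moderated test), and 19 of 24 low RFI pigs were below the high RFI median. CD40, a receptor of antigen-presenting cells that binds TRAF6 directly, was lower at all 4 of its spots, with differences of -0.36 to -0.29. At CD40 spot A_72_P088376 the level was 4.10 ± 0.36 against 4.46 ± 0.20 (SD, n = 24 each, limma's adjusted p = 0.0071). TLR2, a receptor for bacterial lipoproteins, was lower at both of its spots, with differences of -0.37 and -0.27 (limma's adjusted p = 0.031 and 0.040). TLR1, which pairs with TLR2, was lower at 1 of its spots, with a difference of -0.23 (limma's adjusted p = 0.040). When limma was fitted over all non-control spots, that call was lost (adjusted p = 0.064). The calls of CD14 spot A_72_P756625, CD40 spot A_72_P124966 and TLR2 spot O12067 were lost there too (adjusted p = 0.059, 0.052 and 0.061). Among the 28 receptor spots of 13 genes the median was -0.22, and 24 of the spots were below 0.

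Below the receptors 1 spot was called. UBE2V1, the partner subunit of the ubiquitin-conjugating enzyme that builds chains with TRAF6, was higher in low RFI pigs by 0.22 at spot O11517 (95% interval 0.10 to 0.34, limma's adjusted p = 0.035). That call was lost without high RFI HF replicate 1, where the difference was 0.21 and the adjusted p 0.053. It was also lost when all non-control spots were fitted, with an adjusted p of 0.057. The call of TLR2 spot O12067 was lost without that pig as well, with an adjusted p of 0.051. None of the 23 spots of the IKK and NF-kappaB genes, of the 13 spots of the MAP kinase and AP-1 genes, of the 7 spots of other adaptors or of the 4 spots of IRF5 and IRF7 was called. With 2.77% of all retained spots called for line, counts of 0 are unremarkable in groups of this size. The medians of these groups were -0.01, 0.04, -0.05 and -0.05. The lowest difference among the NF-kappaB spots was -0.23, at a spot of NFKBIA, the inhibitor and target of NF-kappaB.

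**Figure D5:**
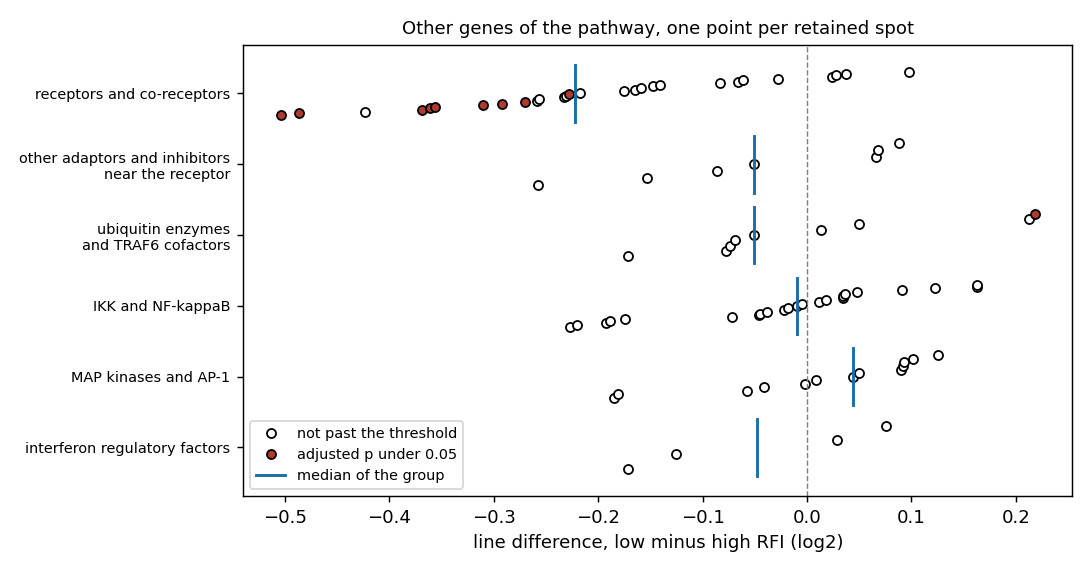
Line difference, low minus high RFI (log2, horizontal axis), of the 84 retained spots of the other pathway genes by role, with spots at an adjusted p under 0.05 filled and the median of each role as a vertical bar. The 9 filled points on the left are spots of CD14, CD40, TLR2 and TLR1, and the filled point on the right is UBE2V1.

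Markers of blood cell types were set beside these values, with calls at an adjusted p under 0.05 in limma's moderated test, which 1.32% of all retained spots passed as higher and 1.44% as lower in low RFI pigs. Of 5 neutrophil marker spots, for 4 of 6 listed genes, 1 was lower in low RFI pigs (CXCR2), and their median difference was -0.42. The mean level of these neutrophil spots ranged from 1.83 to 5.198 in low RFI and from 2.40 to 5.57 in high RFI pigs. Of 15 monocyte spots for 5 genes, 2 were lower, both of CD14, with a median of -0.13 and ranges of 0.60 to 1.963 and 0.82 to 2.50. Of the 7 erythroid spots 1 was higher (SLC4A1), with a median of 0.10 and ranges of 4.48 to 5.91 and 4.17 to 5.86. The other SLC4A1 spot, O801, differed by -0.08 (limma's adjusted p = 0.92). None of the 11 T cell, 8 cytotoxic cell or 4 platelet spots was called, with medians of 0.16, 0.16 and 0.03. The part of cell composition in the TRAF6, CD14 and CD40 values was not tested.

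The spots most like TRAF6 were sought among 16263 retained spots with a gene symbol, by Pearson correlation over the 48 pigs, which includes the line difference itself and the clusters of high RFI pigs and is a description. The highest were APIP, an enzyme of methionine salvage (0.64), SLA-1, a class I histocompatibility gene (0.63), CTSA, a lysosomal protease (0.62), RPL38, a ribosomal protein (0.62), and the heat shock gene HSP70.2 (0.61). The lowest were PERP (-0.65), IGDCC3 (-0.61) and the lipid droplet gene PLIN1 (-0.60). Within low RFI pigs the values were 0.46 for APIP, 0.35 for SLA-1, -0.10 for CTSA, -0.03 for RPL38 and -0.04 for HSP70.2. At the low end they were -0.33 for PERP, -0.64 for IGDCC3 and -0.49 for PLIN1. Partner spots ranged from -0.23 to 0.27 over the 48 pigs, and from -0.50 to 0.44 within low RFI pigs, where the line difference plays no part.

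APIP is also a neighbour of TRAF6, 19 entries away on chromosome 2 in the RefSeq gene table. All 3 of its spots ran with TRAF6, at 0.64, 0.50 and 0.49 over the 48 pigs and at 0.46, 0.49 and 0.41 within low RFI pigs. Its line differences were 0.19, 0.18 and 0.10 with adjusted p of 0.12, 0.24 and 0.70 in limma's moderated test. APIP was looked up in the table after its correlation had been seen. Within 40 entries on either side, 20 other genes had 42 retained spots, whose correlations with TRAF6 ranged from -0.40 to 0.28 over the 48 pigs and from -0.71 to 0.45 within low RFI pigs. The APIP spots lay above that range over the 48 pigs, which the choice of APIP by its correlation had fixed for the highest of them. The other 2 read the same gene. Within low RFI pigs 1 of the 3 lay inside the range. Of these 42 spots 2 were called for line, against 2.77% of all retained spots, both of CD82, 30 entries away, which was higher in low RFI pigs at 2 of its 4 spots, with differences of 0.51 and 0.49 (adjusted p of 0.025 and 0.047 in limma's moderated test) and correlations with TRAF6 of 0.24 and 0.24. Within low RFI pigs these 2 CD82 spots correlated with TRAF6 at -0.06 and 0.05. CD82 too was chosen after its values were seen. Within 5 entries on either side of TRAF6, 1 spot was retained, of RAG1, with a line difference of 0.06 (95% interval -0.13 to 0.25) and a correlation of -0.14. The nearest 3 genes with retained spots beyond these entries, LDLRAD3, TRIM44 and API5, had line differences of -0.04 to 0.03 and correlations of -0.28 to -0.11.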

How the data were processed

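Total RNA of 48 pigs, 12 per line and diet, was hybridized to custom Agilent porcine arrays of 60-base probes. The files that the authors deposited are scanner output (spot intensity and quality calls, Feature Extraction 10.7.3.1) and 1 log2 table of the 37113 spots left by their filter, made in R 3.0.2 per the submitters' processing notes. On 47 arrays a deposited log2 value equalled the log2 median pixel intensity minus the array median of the retained spots (within 0.000001), without background subtraction, which narrows differences at dim spots. The column of high RFI HF replicate 1 repeated 2.71, and it was rebuilt from its scanner file.

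Line, diet and their interaction were fitted to all retained spots with limma 3.58.1 in R 4.3.3, with BH adjustment over all of them. Gene values were means of spots whose name was found in the symbol tables (16264 spots, 8465 genes). On simulated data with independent normal noise, 88.5% of 200 line differences of 0.5 were recovered and 99.0% of 200 of size 1. The simulation held no slide effects, no correlation between spots and no clusters of pigs, so recovery on the real arrays can differ. Correlations used 100000 permutations (Python 3.11.15, numpy 2.4.6, scipy 1.17.1, pandas 2.3.3, matplotlib 3.10.9). Named were all members, called genes of the pathway list, the 5 most and 3 least TRAF6-like spots and retained neighbours of TRAF6. The members and lists were chosen with earlier results of these data known. The alternatives changed the signal, normalization, spot set, block, prior, weights, test, call criterion and the doubtful column. The number of arrays limits the precision. A number of the labels recurs once per group on 1 slide, but no source says what it means. The B cell marker list is not reported here.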

Additional observations from a re-analysis of the deposited data

Results flagged for a closer look

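Signal was present at 2 member spots that the deposited table leaves out. The second TRAF6 spot was well above background on 48 of 48 arrays, and also above the 95th percentile of the negative control spots on 48, while its line difference was 0.06 (95% interval -0.07 to 0.19). The second IRAK3 spot was well above background on 8 of 48 arrays and above that percentile on 44, with a line difference of -0.02 (-0.17 to 0.14). Groups of 12 pigs are above the size at which single pigs were screened as outliers.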

How the results depend on the processing

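Over 12 other settings the TRAF6 line difference kept its direction, between 0.95 and 1.12, and 0 partner spots, 0 partner genes and 0 diet or interaction effects of the members were called at an adjusted p under 0.05. The lowest adjusted p of a partner spot was 0.24. Among 292 such partner values none was called, and 26 had the opposite sign to the main setting, 7 of them partner spots with the column as deposited, which moved the median of all spots to -0.10. At the criterion of the methods (p under 0.01 and FC above 1.1) 0 partner spots passed. The number of pathway spots lower in low RFI pigs was 5 over all non-control spots and 0 with the column as deposited, in which 1 pig has a constant value, and 8 to 12 otherwise. The number of higher spots was 0, 1 or 2. Of the 8 spots most and least like TRAF6, 3 were named again by Spearman correlation, 0 within low RFI pigs and 2 within high RFI pigs, the last over separate clusters of TRAF6 values. Centring by slide ended the calls of the rank correlations of IRAK1 and TAB1, and was chosen after the values were seen. With the replicate block the TRAF6 difference was 1.06 and 0 partner spots were called, and the block changed no call of the members. The numbers were not taken as a pairing. Same-numbered pigs correlated at -0.60 in the lowest pair, and the mean correlation of a number ran from -0.09 to 0.52. The lowest pair does not settle the question, and 22 of 48 pigs correlated best with a pig of their own number. That is a hint from the data that pigs of 1 number, which share a slide, vary together. The dim spots of TRAF6, TIRAP, IRAK3 and MAP3K7 limit what can be seen there.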
